A study of Mus musculus with 6 samples.

Results

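Splicing of 8 genes of fatty acid and sterol synthesis was described in mouse hepatocytes. The genes were Srebf1, Srebf2, Acly, Acaca, Fasn, Scd1, Hmgcs1 and Sqle, picked by gene name with the splicing results of these tables already known, so every value for them is given as a description and none as a test. They are 8 of the 7182 genes with a quantified splicing event. Hepatocytes came from male C57BL/6J mice in groups that shared strain and sex and carried no genetic change. All mice ate chow with 13.5% fat until 8 weeks of age. For the next 12 weeks the diet held 10% of its energy as fat (LFD, low-fat diet) or 60% (HFD, high-fat diet). There were 3 libraries per diet. The values used here were pooled per diet, so the spread between animals is unknown.

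Fatty acids are built in the cytosol from acetyl-CoA, which ATP citrate lyase (Acly) makes from citrate. Acetyl-CoA carboxylase (Acaca) turns it into malonyl-CoA, fatty acid synthase (Fasn) elongates the chain and stearoyl-CoA desaturase (Scd1) adds a double bond. The sterol branch starts from acetyl-CoA as well, with HMG-CoA synthase (Hmgcs1) early and squalene epoxidase (Sqle) late in cholesterol synthesis. SREBP-1 and SREBP-2, the products of Srebf1 and Srebf2, are membrane-bound transcription factors that are cut and sent to the nucleus, where SREBP-1 mainly drives fatty acid genes and SREBP-2 mainly drives sterol genes. Both pathways are very active in the liver.

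The unit of measurement was the local splicing variation (LSV), an exon together with the junctions, and any retained intron, that join it on one side. For each of these entries the tables give PSI, the fraction of the LSV's reads that use it, as a posterior mean with a posterior variance. The ± values below are posterior SDs. They cover the reads of the pooled libraries and not the animals. The lowest PSI in the tables is 0.0125 and the highest 0.9875, and the SD at these bounds is close to 0. The 8 genes had 118 LSVs on LFD and 112 on HFD, and 112 were measured on both diets, with 264 entries. In the whole tables the numbers were 32268, 27441 and 26910. Fasn had 58 of the shared LSVs, Srebf1 26, Acly 11, Scd1, Hmgcs1 and Sqle 5 each, and Acaca and Srebf2 1 each. An intron was among the entries of 84 of the 112 (75%), against 25.4% of all LSVs. Of the 84, 56 were in Fasn and 22 in Srebf1. Acly, Hmgcs1 and Sqle had 2 each, and Scd1, Acaca and Srebf2 had 0.

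Labels of the cells were compared with marker genes by whether a gene had any quantified LSV, since the tables used here hold no expression level. All 9 hepatocyte markers had one on both diets. Of the other lists, 1 of 6 macrophage, 2 of 6 endothelial and 1 of 5 bile duct markers had one on both diets, and 2 of 6 stellate markers had one on LFD and 1 on HFD. What these cells contributed to the values below was not tested.

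No splicing choice of the 8 genes measured on both diets differed between them by 0.1 in PSI or more. A PSI difference of at least 0.2 that was also over 2 posterior SDs of the difference was found in 0 of the 112 LSVs, where 0.624% of all LSVs had one. At a difference of at least 0.1 the count was 0 of 112, with 4.13% of all LSVs. At 0.05 it was 6 of 112, with 9.67% of all LSVs, and all 6 lay in Srebf1. Some of the 6 share a junction or a retained intron with another of them, so they are not 6 separate choices. The median over the 112 LSVs of the largest difference in each was 0.000459, and the same median over all LSVs was 0.00681. The pooled median was set mostly by Fasn, with 58 of the LSVs and a median of 3.31e-05, and by entries at a bound. By gene, the median was 0.0254 in Srebf1, 0.0223 in Hmgcs1, 0.0181 in the single LSV of Srebf2 and 0.00976 in that of Acaca, above the median of all LSVs. It was 0.000186 in Sqle, 1.97e-09 in Acly and 0 in Scd1. In 47 LSVs (42.0%) every entry sat at a bound on both diets, against 21.8% of all LSVs. A difference of at least 0.02 was seen in 25 LSVs (22.3%), and the share over all LSVs was 33.0%. They were 15 of the 26 LSVs of Srebf1 (57.7%), 5 of 58 in Fasn, 3 of 5 in Hmgcs1 and 2 of 11 in Acly.

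**Figure D1:**
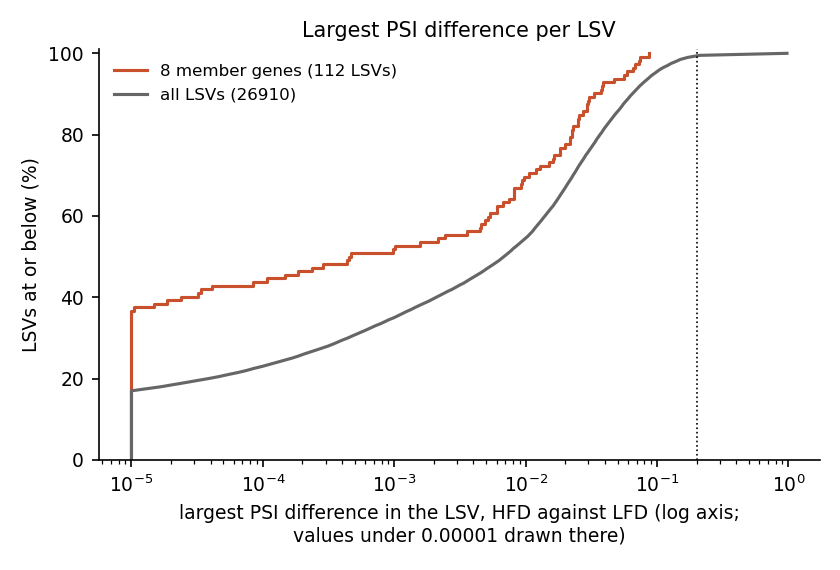
Share of LSVs (vertical axis, percent) whose largest PSI difference between diets is at or below the value on the horizontal axis (log scale). The red line is the 112 LSVs of the 8 genes and the grey line all 26910 LSVs; the dotted line marks 0.2. The red line reaches 100% at 0.0866, the largest difference, and lies above the grey line.

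In the plot of cumulative differences, the left end of each line holds LSVs with no measurable difference, drawn at the edge of the axis. Precision on both diets was compared away from the bounds, which left 3 of the 8 genes. Over 26 entries, 16 of Srebf1, 6 of Hmgcs1 and 4 of Acly, with PSI between 0.1 and 0.9 on both diets, the effective read number behind a value, which is PSI times one minus PSI over the variance, less one, had a median of 331 on LFD and 363 on HFD, a ratio of 1.10. Over 7126 such entries of all genes it was 220 on LFD and 169 on HFD, a ratio of 0.768. The LSVs of Acaca that lacked an HFD value are not among the 26. The shared Acaca LSV, outside this PSI window, had 814 on LFD and 109 on HFD. Fasn entries outside the window went either way. In an LSV of 2 entries both give the same number, so the 26 entries stand for fewer separate values. These numbers follow both transcript level and sequencing depth. In bulk cells, fewer cells and less RNA per cell cannot be told apart.

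Srebf1 lies on the minus strand of chromosome 11 (GRCm38, chr11:60199089-60222581). Its first exon is chosen between start sites, and the products SREBP-1a and SREBP-1c differ in the N-terminal activation domain. SREBP-1c is the main form of the liver, and SREBP-1a has the longer activation domain. The first exon of the 1c form (chr11:60210336-60210465) has 130 bases, of which 19 are coding. That of the 1a form (chr11:60220453-60220604) has 152 bases, of which 91 are coding. Both join the shared second exon (chr11:60206838-60207257), and the joins are shown because reads across them tell the forms apart. Capitals mark the first exon and lower case the second exon, in GENCODE M21 transcripts.
Srebf1 1c join: ATTGCACATTTGAAGacatgctccagctca
Srebf1 1a join: TGAACGACATCGAAGacatgctccagctca

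The 1c first exon gave most of the reads on both diets. Its PSI was 0.741 ± 0.0241 on LFD and 0.827 ± 0.0198 on HFD, a difference of 0.0866 or 2.78 SDs, the largest of any entry in the 8 genes. The 1a first exon had 0.162 ± 0.0195 on LFD and 0.113 ± 0.0162 on HFD, a difference of -0.0488 or -1.93 SDs. Another start, farther upstream and without coding bases (chr11:60222523-60222581), had 0.0323 ± 0.0106 and 0.0397 ± 0.00817. The remaining start of the LSV, an exon end at position 60207391, had 0.0201 ± 0.0115 on LFD and 0.0126 ± 0.00174 on HFD. A junction inside the second exon (chr11:60206955-60207082), which is not a start, had 0.0343 ± 0.00942 on LFD and 0.0125 on HFD, -2.32 SDs. Its reads count in the same LSV, so the 1c difference of 0.0866 is not one among starts alone. The 8 entries of the LSV share one set of reads, so a higher share of 1c goes with a lower sum of the others by construction, and the amount of either transcript was not measured.

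The sequence before each start is given because the starts are read from separate promoters. Entries of RefSeq (GRCm38.p6) covered the 250 bases before a start for both forms, at chr11:60210472-60210721 for 1c and chr11:60220628-60220877 for 1a, each on the minus strand. Capitals mark matches, on either strand, to CCAAT (the CCAAT box, reverse ATTGG) and to GGGCGG (a GC box, reverse CCGCCC). The E-box CACGTG and the sterol element TCACNCCAC were searched as well. None of these motifs overlapped another here.
Srebf1 1c promoter: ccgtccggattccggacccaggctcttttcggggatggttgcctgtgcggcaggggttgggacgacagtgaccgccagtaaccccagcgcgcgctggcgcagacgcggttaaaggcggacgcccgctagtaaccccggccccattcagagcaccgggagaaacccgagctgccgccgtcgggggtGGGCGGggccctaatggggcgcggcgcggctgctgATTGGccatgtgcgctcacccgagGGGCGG
Srebf1 1a promoter: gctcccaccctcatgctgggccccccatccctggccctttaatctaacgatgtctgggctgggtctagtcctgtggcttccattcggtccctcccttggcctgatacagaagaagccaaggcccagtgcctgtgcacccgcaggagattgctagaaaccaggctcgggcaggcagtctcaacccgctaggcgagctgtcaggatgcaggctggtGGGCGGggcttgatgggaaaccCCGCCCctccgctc

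The 1c window held 1 CCAAT match, 30 bases before the start, and 2 GGGCGG matches, at 65 and 6 bases. The 1a window held 0 CCAAT matches and 2 GGGCGG matches, at 36 and 14 bases. Neither had a match to CACGTG or TCACNCCAC. Other forms of the E-box and of the sterol element were not searched, so their absence is not shown. Among 32851 RefSeq promoters of the same length, 33.8% held CCAAT, 32.7% GGGCGG, 6.02% CACGTG and 1.05% TCACNCCAC. These are matches of letters, and binding was not measured.

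The third exon of Srebf1 (chr11:60206395-60206573) is coding, and its 179 bases leave 2 over a multiple of 3, so its loss shifts the reading frame. Reads joined the second to the fourth exon when it was skipped. The joins show what a kept and a skipped transcript look like, with the last bases of the second exon in lower case and the exon that follows in capitals.
Srebf1 exon kept: cttcaggcttctcagGGACCCTTCCAGGAA
Srebf1 exon skipped: cttcaggcttctcagGTTGTACTGCAGCCA

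Skipping was at the lowest PSI on LFD and slightly above it on HFD. In the LSV of the fourth exon, the skipping junction (chr11:60206310-60206838) had 0.0125 on LFD and 0.0377 ± 0.00671 on HFD, 3.76 SDs. In the LSV of the second exon the same junction had 0.0125 and 0.0425 ± 0.0103, 2.91 SDs, and these reads are shared by both LSVs. The exon was kept in nearly all transcripts on both diets. Its junction to the fourth exon had 0.980 ± 0.0115 on LFD and 0.907 ± 0.0139 on HFD, a difference of -0.0727 or -4.02 SDs. In the same LSV the retained intron between these exons (84 bp) had 0.0194 ± 0.0112 on LFD and 0.0565 ± 0.0123 on HFD, 2.24 SDs. Within that LSV this was a larger difference than that of skipping. From the third exon the same intron had 0.0125 on LFD and 0.0220 ± 0.0121 on HFD, a difference of 0.00944 or 0.78 SDs. The junction of the third exon to the second exon showed 0.945 ± 0.0133 on LFD and 0.948 ± 0.0129 on HFD. The lower value at one end of the third exon had no counterpart at the other, where a junction inside the second exon (chr11:60206955-60207082) had 0.0400 ± 0.00966 on LFD and 0.0125 on HFD. JUM is another splicing program, and the authors' deposited table of its events lists this exon as a cassette, changed by -0.0167 (HFD minus LFD) at a p of 0.00164 and an adjusted p of 0.0603. The sign is that of the PSI tables, but the event missed an adjusted p of 0.05.

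Introns were kept in part of the Srebf1 reads along the gene. The tables measured 11 intron entries of 34 to 168 bp, each from the exon on either side, which gave 22 values. In transcript order, entries 2 (60 bp) and 3 (96 bp) are segments inside main splices of 95 and 120 bases. Entries 7 and 8 are segments too. PSI reached 0.224 on LFD and 0.150 on HFD. Of the 22 values, 10 were higher and 11 lower on HFD by over 0.001, and 3 (13.6%) and 4 (18.2%) of them by over 2 SDs. Over the 6848 intron values of all genes, 9.64% were higher and 7.46% lower by both limits. The direction followed position, in a split made after the values were seen. In the first 4 entries, 7 of 8 values were higher on HFD and 0 lower, with medians of 0.0161 on LFD and 0.0422 on HFD. Of the 7, 3 were higher by over 2 SDs. In the next 5 entries, 9 of 10 values were lower on HFD and 1 higher, with medians of 0.124 and 0.0938. Of the 9, 4 were lower by over 2 SDs, and these were the paired ends of entries 7 and 8. In the last 2 measured introns 2 values were higher and 2 lower, none by over 2 SDs.

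The introns before and after the thirteenth exon held the largest differences. The intron before it (chr11:60202262-60202761, 500 bases) was measured through a segment of 34 bases between the exon ends that the tables use. That segment had 0.224 ± 0.0230 on LFD and 0.149 ± 0.0172 on HFD, -2.58 SDs, in one LSV and 0.105 ± 0.0167 and 0.0491 ± 0.0128, -2.65 SDs, in the other. The splice that removes the whole intron was higher on HFD by the same amount, by construction, with 0.776 ± 0.0230 against 0.851 ± 0.0172 in the former LSV and 0.895 ± 0.0167 against 0.951 ± 0.0128 in the latter. The intron after it (chr11:60201906-60202158, 253 bases) was measured through a segment of 149 bases. Its PSI was 0.0741 ± 0.0143 on LFD and 0.0125 on HFD in one LSV, and 0.0656 ± 0.0140 and 0.0125 in the other. Retention of that segment was thus found on LFD and was at the lowest PSI on HFD. Its splice had 0.920 ± 0.0148 on LFD and 0.987 on HFD, 4.56 SDs, and from the other exon 0.929 ± 0.0146 and 0.987, 4.04 SDs.

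The ends of the sixth measured intron of the gene, a whole intron of 168 bases in the same stretch (chr11:60202931-60203098), were read from an annotated transcript that keeps it, and are shown as an example. Capitals mark the intron and lower case the exons.
Srebf1 measured intron 6, 5′ end: ctgcacttcttgacaGTGAGTAGGCTGATG
Srebf1 measured intron 6, 3′ end: GTTCCTTCCCTACAGcgtttcttcctgagc

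It starts with GT and ends with AG, as most mammalian introns do. Its PSI was 0.127 ± 0.0167 on LFD and 0.0880 ± 0.0141 on HFD from one exon and 0.124 ± 0.0165 and 0.117 ± 0.0156 from the other, differences of -1.77 and -0.30 SDs. The tenth measured intron, also of 168 bases (chr11:60201412-60201579), had 0.148 ± 0.0185 on LFD and 0.150 ± 0.0188 on HFD from one exon and 0.110 ± 0.0164 and 0.105 ± 0.0153 from the other.

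**Figure D2:**
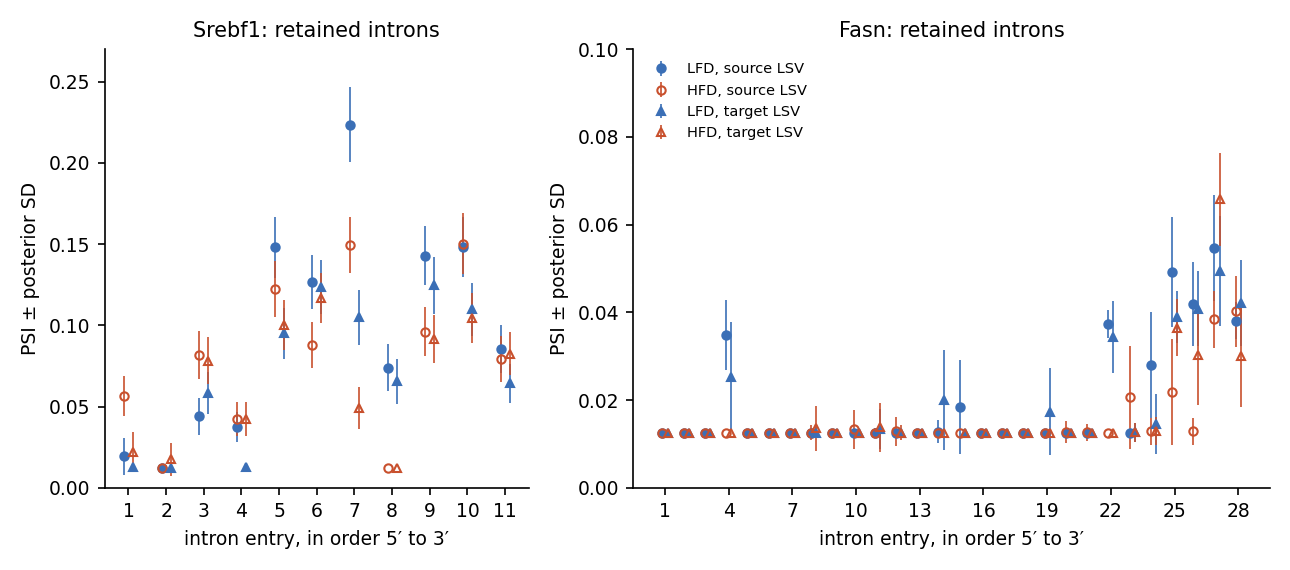
PSI of the intron entries (vertical axis, ± posterior SD) of Srebf1 (left) and Fasn (right, on a smaller scale), numbered in transcript order on the horizontal axis, on LFD (blue, filled) and HFD (red, open). Circles and triangles are the values from the exon on either side of the same intron. In Srebf1, entries 7 and 8 are lower on HFD at both ends. In Fasn, all but 1 of the entries with PSI of 0.02 or more are among the last 7.

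Srebf2, which encodes the sterol regulator SREBP-2, had a single LSV (chromosome 15, plus strand). Its main junction (chr15:82203296-82203697) had 0.969 ± 0.0189 on LFD and 0.987 ± 0.00414 on HFD, a difference of 0.0181 or 0.94 SDs.

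Among the enzymes, Acly had a cassette exon used on both diets. The exon has 30 bases (chr11:100503160-100503189, minus strand), all coding, and keeps the reading frame. It is shown in capitals, with the ends of its neighbours in lower case, because reads divide over its presence.
Acly exon: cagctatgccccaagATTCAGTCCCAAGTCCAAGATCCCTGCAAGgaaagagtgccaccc

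Most Acly reads skipped this exon. Skipping had 0.683 ± 0.0305 on LFD and 0.644 ± 0.0268 on HFD in the LSV of the following exon, -0.94 SDs. In the LSV of the preceding exon it had 0.697 ± 0.0274 and 0.631 ± 0.0297, a difference of -0.0659 or -1.63 SDs. Inclusion was therefore 0.317 and 0.303 on LFD and 0.356 and 0.369 on HFD. Both LSVs show more inclusion on HFD by less than 2 posterior SDs, and they share the reads of the skipping junction. The authors' deposited table of JUM lists the exon at 0.0672 (p 0.0326, adjusted p 0.337). Of the 11 Acly LSVs, 7 had every entry at a bound on both diets, and the gene's single measured intron (176 bp) was at the lowest PSI on both.

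Most LSVs of Acaca were measured on LFD alone. Of its 7 LSVs on LFD, 6 (85.7%) had no entry on HFD, where 16.6% of all LFD LSVs had none. Of 1515 genes with at least 7 LSVs on LFD, 33 (2.18%) lost at least 6 of 7. The read minimum behind the tables was not stated in the labels or file headers, and an LSV can go missing for want of reads. On LFD, the median effective read number of the 14 Acaca entries with PSI between 0.1 and 0.9 was 157 (82.1 to 256), against 207 in LSVs shared by the diets and 92.9 in LSVs of LFD only, over all genes. Whether Acaca had fewer transcripts on HFD was not tested. Acacb, which encodes the mitochondrial form of the carboxylase, had 12 LSVs on LFD and 0 on HFD. The single Acaca LSV of both diets had its main junction (chr11:84380679-84382432) at 0.987 ± 0.00399 on LFD and 0.977 ± 0.0143 on HFD.

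The LFD table shows the makeup of Acaca transcripts, with no HFD value beside it. Acaca, on the plus strand, had a pair of first exons in use, and a 47-base exon (chr11:84193079-84193125) lay between them and the exon that starts at position 84195438. From the first exon at chr11:84173122-84173555, 0.617 ± 0.0533 of the reads went to the 47-base exon and 0.383 ± 0.0533 skipped it. From the first exon at chr11:84179831-84179926, the shares were 0.670 ± 0.0493 and 0.327 ± 0.0492. Reads into the 47-base exon came at 0.393 ± 0.0433 from the former, at 0.455 ± 0.0444 from the latter and at 0.149 ± 0.0311 from an exon end at position 84180472. Neither first exon was thus dominant. Farther down the gene a coding exon of 24 bases (chr11:84290288-84290311), which keeps the frame, divided the reads about evenly. It is printed in capitals with its neighbours' ends.
Acaca exon: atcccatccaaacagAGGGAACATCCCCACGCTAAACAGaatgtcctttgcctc

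Inclusion of the 24-base exon on LFD was 0.504 ± 0.0319 from the exon before it and 0.513 ± 0.0312 from the exon after it.

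Fasn is a gene of many short introns. It has 42 annotated introns. Measured from both ends were 28 introns or intron segments of 73 to 177 bp, which gave 56 of its 119 entries. The 23rd of them (102 bp, chr11:120809702-120809803) is a segment inside a splice that spans 189 bases. Nearly all of the 28 were spliced out. PSI did not pass 0.0546 on LFD or 0.0658 on HFD. A PSI of at least 0.02 on either diet was found for 8 of the 28. These were all 7 of the last 7 measured and 1 of the 21 before them, a split made after the values were seen. By over 0.001, 4 values (7.14%) were higher and 15 (26.8%) lower on HFD, and 0 and 4 (7.14%) by over 2 SDs. Over the intron values of all genes, 37.1% were higher and 33.5% lower by over 0.001. By over 2 SDs as well, these shares were 9.64% and 7.46%. The share of lower values in Fasn was thus not above that of all genes.

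In Fasn, the 22nd measured intron (80 bp, chr11:120810050-120810129) was lower on HFD at both ends. Its PSI was 0.0374 ± 0.00318 on LFD and 0.0125 on HFD from one exon, and 0.0344 ± 0.00827 and 0.0125 from the other. The largest difference in the gene, -0.0291, was that of the 26th measured intron (118 bp, chr11:120808601-120808718), with 0.0419 ± 0.00960 and 0.0129 ± 0.00305 from one exon. From its other exon the values were 0.0409 ± 0.00854 and 0.0303 ± 0.0114, -0.74 SDs. An earlier intron, the fourth measured (144 bp, chr11:120816478-120816621), had 0.0349 ± 0.00792 on LFD and 0.0125 on HFD from one exon, and 0.0254 ± 0.0125 and 0.0125 from the other. The highest PSI belonged to the 27th measured intron (175 bp, chr11:120808327-120808501), whose ends can be read from an annotated transcript. Capitals mark the intron.
Fasn measured intron 27, 5′ end: gtggaacacagcaagGTGTGCCTGGAGACA
Fasn measured intron 27, 3′ end: AACTGTCACCCCTAGgtgctggaggccctg

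That intron had 0.0546 ± 0.0121 on LFD and 0.0384 ± 0.00656 on HFD from one exon and 0.0494 ± 0.0125 and 0.0658 ± 0.0107 from the other, so the ends differed in direction and both by less than 2 SDs. Of the 58 Fasn LSVs, 30 had every entry at a bound on both diets.

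Over the 8 genes there were 42 measured introns or intron segments with 84 values. By over 0.001, 14 (16.7%) were higher and 26 (31.0%) lower on HFD, where 37.1% and 33.5% of all 6848 intron values were. Counting every difference, however small, 45 were higher and 39 lower, so the direction turns with this limit. By over 2 SDs as well, 3 (3.57%) were higher, all in Srebf1, and 8 (9.52%) lower, 4 in Srebf1 and 4 in Fasn. Values at the ends of one intron share the retained reads in part and are not independent. In the plot of retained introns, the values of the genes overlap. The median was 0.0797 on LFD and 0.0806 on HFD in Srebf1, and it was at the lowest PSI in Fasn on both diets. The single measured introns of Acly, Hmgcs1 (165 bp) and Sqle (79 bp) were at the lowest PSI on both diets.

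Scd1 lies on the minus strand of chromosome 19. All 22 entries of its 5 LSVs were at a bound on both diets, and the largest difference was 0. The authors' deposited table of JUM nevertheless lists retention of a Scd1 intron (chr19:44398118-44400140) at 0.0586 (p 2.99e-04, adjusted p 0.0204). It is the only one of 3 events of the 8 genes in that table that passed an adjusted p of 0.05, where 17.7% of its 470 events passed. The table lists only events with a p under 0.05. In the PSI tables the splice of that intron of 2023 bases (chr19:44398118-44400142) had 0.9875 on both diets, and 0 intron entries were given for Scd1, so retention of it was not measured there. Scd1 has close paralogs, and the labels and file headers do not say how shared reads were counted.

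In the sterol branch, Hmgcs1 has several leaders before its start codon, on the plus strand of chromosome 13. From the first exon, which ends at position 119690513, the reads went to the exon with the start codon, to a 59-base exon (chr13:119694989-119695047) or to a longer form of the latter with 158 bases (chr13:119694890-119695047). Neither of these added exons is coding. The direct splice had 0.536 ± 0.0333 on LFD and 0.513 ± 0.0292 on HFD. The 59-base exon had 0.379 ± 0.0322 and 0.385 ± 0.0283, and the 158-base exon 0.0818 ± 0.0149 and 0.101 ± 0.0173. The 3 leaders kept their order on both diets, and each differed by less than 1 SD. Seen from the 158-base exon, its own start had 0.177 ± 0.0274 on LFD and 0.208 ± 0.0312 on HFD, the largest difference of the gene at 0.0306 or 0.74 SDs. Seen from the start-codon exon, the direct splice had 0.378 ± 0.0294 and 0.356 ± 0.0314.

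**Figure D3:**
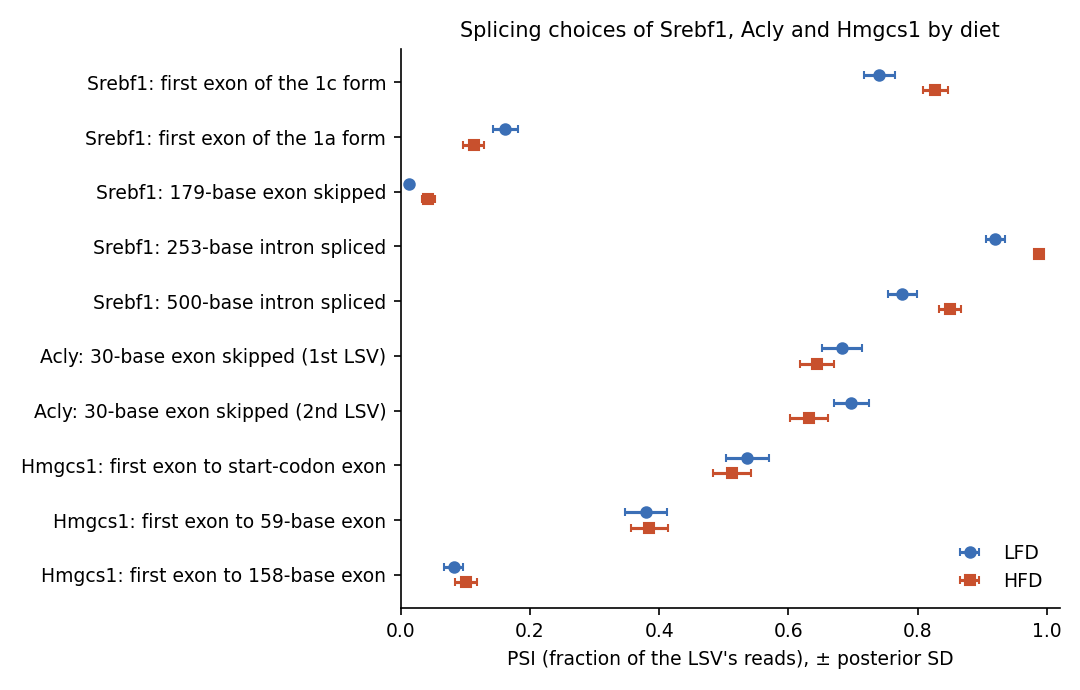
PSI (horizontal axis, fraction of the LSV's reads, ± posterior SD) on LFD (blue circles) and HFD (red squares) for splicing choices of Srebf1, Acly and Hmgcs1 (vertical axis). The 5 Srebf1 choices differ by 0.0300 to 0.0866 in PSI, and those of Acly and Hmgcs1 lie within 2 SDs of the difference.

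Sqle had 5 LSVs, 2 of them with every entry at a bound. Its largest difference, 0.00448, was at the junction chr15:59321494-59322836, with 0.9875 on LFD and 0.983 ± 0.00965 on HFD. In the plot of splicing choices, Sqle, Scd1, Fasn and Srebf2 are left out because their junctions lay at or near the bounds, and Acaca because its other LSVs had no HFD value.

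A list of 51 further genes of both pathways and of their control was compared as well, and 46 of them had LSVs on both diets. It held 18 of 18 genes of sterol synthesis, 14 of 17 of lipogenesis and 14 of 16 regulators. Past a difference of 0.2 and 2 SDs there was 1 gene, where 2.31% of all genes had an LSV past it, and past 0.1 there were 8, where 13.3% did. The median over the list's 301 LSVs of the largest difference was 0.000812. The authors' deposited table of differential LSVs (dPSI) listed 0 of the 112 LSVs of the 8 genes, with 0.36% of all LSVs, and 1 of the 46 list genes, with 1.72% of all genes. The authors' deposited table of JUM listed 7 of the 46, with 5.7% of all genes, and 0 of them passed an adjusted p of 0.05, with 1.05% of all genes.

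Of the 8 list genes past 0.1, 6 are described here. Among the regulators, a junction of Scap, which escorts the SREBPs out of the endoplasmic reticulum, had 0.747 ± 0.0388 on LFD and 0.90 ± 0.0349 on HFD. A junction of Insig1, which holds Scap back when sterols are plentiful, had 0.9875 on LFD and 0.865 ± 0.0189 on HFD. Nr1h2, which encodes the liver X receptor beta, had 0.309 ± 0.0351 and 0.422 ± 0.0412. In these 3 regulators the differences ran from 0.113 to 0.153 in size, above the largest of the 8 genes. Among the enzymes, Dhcr7 of the last steps of cholesterol synthesis had 0.655 ± 0.0372 and 0.802 ± 0.0457. Dgat1, which makes triglyceride, had 0.987 ± 0.00374 and 0.880 ± 0.0414, and an intron of the fatty acid elongase Elovl6 had 0.239 ± 0.0261 and 0.130 ± 0.0307.

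**Figure D4:**
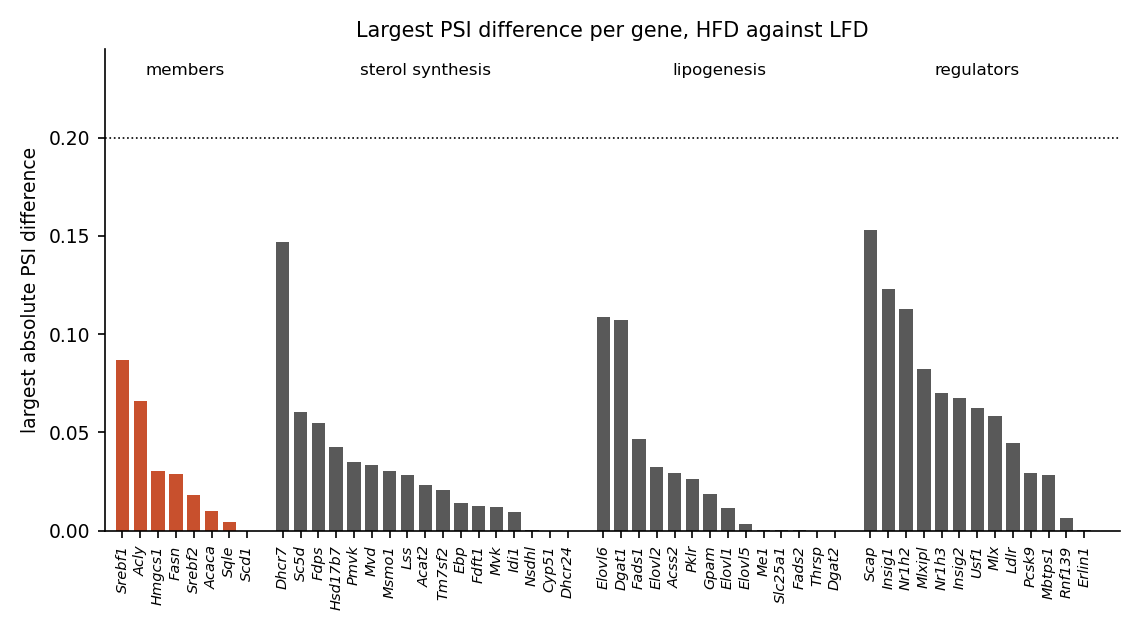
Largest absolute PSI difference between diets per gene (vertical axis) for the 8 genes (red) and 44 of the 46 measured genes of the list (grey), by group along the horizontal axis. The dotted line marks 0.2. Of the genes drawn, Scap has the highest bar at 0.153, and Srebf1 at 0.0866 is the highest of the 8.

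In the plot of genes, Srebf1 (0.0866) and Acly (0.0659) lead the 8, followed by Hmgcs1 (0.0306), Fasn (0.0291), Srebf2 (0.0181), Acaca (0.00976), Sqle (0.00448) and Scd1 (0). The height of a bar also depends on how many LSVs a gene has and on their reads.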

How the data were processed

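Stranded paired-end mRNA libraries of hepatocytes, 3 per diet, were made per the labels' protocols, with the diet read from each title. Per the submitters' processing notes, FastQC, STAR and mm10 were used; neither versions nor read depths were found in the labels. The authors deposited, per the file headers, PSI and posterior variance per LSV entry from MAJIQ's voila as 1 pooled value per diet, which are fractions, a dPSI table, and a JUM table of events with p-values under 0.05 and their adjusted p-values. The dPSI run is marked strict in its header.

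LSVs were matched by LSV ID, and the SD of a difference is the root of the summed posterior variances. A difference of at least 0.2 and over 2 SDs was counted, with no p of its own, and genes were annotated from GENCODE M21. Python 3.11.15, pandas 2.3.3 and numpy 2.4.6 were used, and the rule was tried on simulated data. The simulation took only entries of middling PSI on LFD, with noise drawn from the posterior variances. It therefore does not cover values near a bound or the spread between animals. Named in full were the entries of the 8 genes in the dPSI and JUM tables, LSVs past 0.1, each gene's largest difference, and list genes past the rule, in the dPSI table or past the JUM adjusted p of 0.05, apart from those not reported. List genes past 0.1 and other entries described were chosen after their values were seen. The genes and lists were chosen with earlier results of these data known. Alternatives were other difference limits, 3 SDs, matching by coordinates, other adjusted p limits, PSI windows and intron tolerances. Values of 2 list genes are not reported here, though counts over the list include them.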

Additional observations from a re-analysis of the deposited data

How the results depend on the processing

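Of 16 alternatives, 9 left the result within its limits and 7 moved it. Some of the 9 could not have moved it, so their number is no measure of stability. A tighter limit, 3 SDs or a probability of 0.95, cannot lower a count of 0. A mean intron PSI of at least 0.01 leaves out nothing, as the lowest PSI is 0.0125. A posterior SD limit of 0.05 gave the same median of 0.000459. The count of LSVs of the 8 genes past the limits, 0 as reported, was 6 with a difference of 0.05, and it was 0 with 0.1, with 3 SDs and with matching by coordinates. List genes, 1 as reported, were 8 with a difference of 0.1 and 12 with 0.05. JUM events, 1 as reported, were 0 at an adjusted p of 0.01 and 2 at 0.1. Intron values higher on HFD, 14 as reported against 26 lower, were 45 against 39 with a tolerance of 0 and 6 against 18 with 0.01, both chosen after seeing the data, so the direction of the excess depends on the tolerance. The ratio of effective read numbers was 1.08 with PSI from 0.05 to 0.95, and the median difference over every entry was 0.000148. No paired analysis was possible because the values are pooled per diet. For the same reason no library could be left out. Posterior SDs near a bound are close to 0, so differences given in SDs there rest on the reads of 1 diet.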
